A study of Homo sapiens with 6 samples.

Results

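The unfolded protein response and the integrated stress response are described here in U251, an established human glioblastoma cell line, with and without overexpression of PD-L1. PD-L1 is the protein encoded by CD274 and the ligand that PD-1 on T cells binds. The PD-L1 group was a stable lentiviral PD-L1 line and the Vector group a line that carried the same kind of lentivirus without PD-L1. Each group had 3 dishes (100 mm dishes at passage 5 to 10), taken 12 h after passage into DMEM with 10% fetal bovine serum, and no stress agent was named for either group. The 36 members were picked by name from the pathway and are 36 of the 57773 gene entries counted and 36 of the 15818 genes abundant enough to be tested. All 36 were tested. They were grouped by role into 14 ER chaperones, 4 genes of ER-associated degradation, 5 sensors and transcription factors and 13 ATF4 targets. Values are CPM (reads of a gene relative to the reads of its dish), scaled between dishes by the trimmed mean of M values (TMM). A gene counted as changed at a false discovery rate (FDR, adjusted p) under 0.05 in edgeR's quasi-likelihood test.

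The endoplasmic reticulum (ER) folds secreted and membrane proteins, and PD-L1 is itself a glycosylated membrane protein. When unfolded protein accumulates there, the membrane sensors IRE1 (ERN1), PERK (EIF2AK3) and ATF6 are activated. ATF6 and the transcription factor made from XBP1 mRNA after IRE1 splices it raise transcription of ER chaperones and of degradation genes. PERK phosphorylates the translation factor eIF2, as do kinases that sense amino acid shortage and other stresses, and this favours translation of ATF4, a transcription factor for amino acid supply, tRNA charging and, under lasting stress, cell death genes. Chaperones therefore read mainly the ATF6 and XBP1 arm, and the ATF4 targets read the eIF2 arm. Gene counts measure neither XBP1 splicing nor ATF4 translation nor phosphorylation of eIF2.

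Promoter sequences are shown because the 2 arms are known to act through different DNA elements, which can be read without using expression. RefSeq promoter windows of GRCh38.p14, from 250 bases before to 50 after the transcript start, were found for all members but PDIA3 and PSPH. Exact matches on both strands were sought for the ER stress response element (ERSE, CCAAT, any 9 bases, CCACG), ERSE-II (ATTGG, any 1 base, CCACG), the unfolded protein response element (UPRE, TGACGTGG) and the C/EBP-ATF element (TGATGNAA). The 250 bases before the start are printed below for the chaperones HSPA5 (chr9:125241344-125241593, minus strand) and HSP90B1 (chr12:103930160-103930409, plus strand). Those of the ATF4 targets ASNS (chr7:97872409-97872658, minus strand) and CHAC1 (chr15:40953221-40953470, plus strand) follow. Each reads 5′ to 3′ along the gene, with the whole match in capitals, and the second match of HSP90B1 and the match of CHAC1 lie on the opposite strand and so appear as the reverse complement.
HSPA5: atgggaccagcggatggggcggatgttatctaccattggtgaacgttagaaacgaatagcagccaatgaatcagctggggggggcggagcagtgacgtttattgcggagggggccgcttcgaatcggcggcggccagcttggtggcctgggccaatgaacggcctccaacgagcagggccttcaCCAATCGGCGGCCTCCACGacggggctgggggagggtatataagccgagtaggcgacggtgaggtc
HSP90B1: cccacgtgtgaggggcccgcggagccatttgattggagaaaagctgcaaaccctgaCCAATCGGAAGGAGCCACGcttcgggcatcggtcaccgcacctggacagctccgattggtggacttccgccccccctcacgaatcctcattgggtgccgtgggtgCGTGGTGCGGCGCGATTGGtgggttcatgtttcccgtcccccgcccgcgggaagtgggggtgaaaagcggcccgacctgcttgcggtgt
ASNS: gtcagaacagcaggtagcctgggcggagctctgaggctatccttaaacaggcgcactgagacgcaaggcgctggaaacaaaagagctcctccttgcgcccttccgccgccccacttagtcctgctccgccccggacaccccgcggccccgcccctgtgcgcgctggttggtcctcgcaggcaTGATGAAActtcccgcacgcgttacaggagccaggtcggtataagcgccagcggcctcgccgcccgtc
CHAC1: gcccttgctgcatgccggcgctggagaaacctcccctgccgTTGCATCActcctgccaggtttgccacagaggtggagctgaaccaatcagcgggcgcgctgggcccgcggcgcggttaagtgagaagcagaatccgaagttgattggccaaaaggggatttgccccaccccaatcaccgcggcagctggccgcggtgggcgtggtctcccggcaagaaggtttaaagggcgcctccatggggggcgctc

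Of the 13 chaperones with a window, 6 had an ERSE and another 2 an ERSE-II, so that 8 had one or the other. None of the 12 ATF4 targets with a window had either. Over all 35116 windows of this length, an ERSE was found in 0.0769% and an ERSE-II in 0.0541%. These shares count windows and not genes, and some members had several windows (CANX had 4), all of which were searched. The further matches are given next in the motif's own orientation, with the fixed letters of the motif in capitals. XBP1 and the degradation gene HERPUD1 are the members outside the chaperones that had one. Each position is that of the base of the match farthest upstream, counted from the transcript start. The matches of CALR, CRELD2, SDF2L1 and HYOU1 lie on the opposite strand, so the position given is that of their last printed letter.
CALR, from -225: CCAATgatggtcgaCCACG
CANX, from -9: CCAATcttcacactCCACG
PDIA6, from -86: CCAATgagccgcagCCACG
CRELD2, from -80: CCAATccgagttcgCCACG
XBP1, from -52: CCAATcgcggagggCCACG
SDF2L1, from -188: ATTGGtCCACG
HYOU1, from -185 and from -79: ATTGGaCCACG
HERPUD1, from -117: ATTGGgCCACG

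The C/EBP-ATF element was found in 4 of the 12 ATF4 targets with a window (ASNS, CHAC1, CEBPG and AARS). It was in 0 of the 13 chaperones with a window and in HERPUD1, against 3.62% of all windows. ASNS had TGATGaAA from position -68, where capitals are the fixed letters, and the other 3 targets and HERPUD1 had TGATGcAA. A UPRE stood in the HYOU1 window alone among the chaperones and overlapped its ERSE-II at -185. This motif was in 0.729% of all windows. The matches describe letters in these windows, and binding was not measured.

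**Figure D1:**
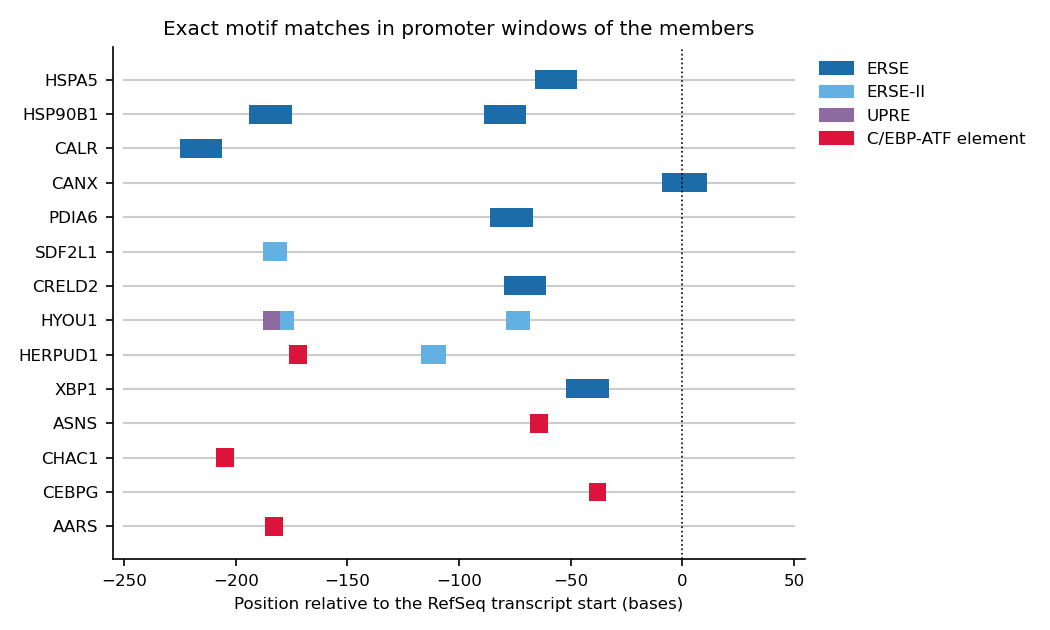
Position of each exact motif match, in bases from the RefSeq transcript start, in the promoter windows of the 14 members that had one (grey line: window from 250 bases before to 50 after the start). ERSE and ERSE-II matches lie in 8 chaperones, XBP1 and HERPUD1, and C/EBP-ATF matches in 4 ATF4 targets and HERPUD1.

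CD274 was counted at 1309, 1356 and 1234 CPM in PD-L1 dishes 1 to 3 and at 1.56, 3.47 and 2.21 CPM in Vector dishes 1 to 3, as the labels state. Total counts were 15678989 to 22270509 per dish, so that 3 counts correspond to 0.138 to 0.185 CPM. The lowest count of any member in any dish was 111 (DDIT3). Each group is 1 transduced line, and the tests therefore measure only how dishes of that line vary. PD-L1 dish 3 stood apart: pairs with it had a chi-square of 14.1 to 15.4 per degree of freedom, against 2.93 for PD-L1 dishes 1 and 2 and 5.03 to 9.58 between Vector dishes. Its ribosomal protein genes were a median of 0.284 log2 units above the Vector mean, against -0.0845 to 0.0535 in the other dishes. Mitochondrial genes took 2.46% to 2.97% of counts. The 8 glioma or astrocyte markers summed to 819.6 to 898 CPM in the PD-L1 dishes against 996 to 1042 CPM in the Vector dishes, with GFAP, the astrocyte filament, at only 1.45 to 3.82 CPM. These markers did not move together. VIM (means 241 against 391 CPM), NES (48.0 against 74.9 CPM) and SOX2 (42.8 against 56.0 CPM) were lower in the PD-L1 dishes. GLUL was higher in every PD-L1 dish (504 against 465 CPM), and SLC1A3 overlapped between groups (23.1 against 22.0 CPM). The 5 leukocyte or microglia markers summed to 2.77 to 3.16 CPM in the PD-L1 dishes against 3.91 to 5.06 CPM in the Vector dishes, and the 4 oligodendrocyte markers to 5.09 to 5.90 and 7.64 to 9.34 CPM. The sums of the neuron markers (16.5 to 19.3 and 17.4 to 18.4 CPM), endothelium markers (2.68 to 3.75 and 2.98 to 4.04 CPM) and epithelium markers (5.55 to 30.3 and 13.2 to 40.1 CPM) overlapped between groups. PECAM1, an endothelium marker, had no ID and is not in its sum. In that sum KDR had a lower mean in the PD-L1 dishes (0.725 against 1.61 CPM) and CDH5 a higher one (2.11 against 1.30 CPM), while VWF overlapped. In the epithelium sum, KRT5 alone ran from 3.2 to 27.0 CPM in the PD-L1 dishes and from 9.64 to 36.7 CPM in the Vector dishes. MOG, MAG and CD3E were at or near 0. The dishes held 1 cultured line per group, so these sums are RNA levels of marker genes and not counts of tissue cell types. Whether fewer U251 cells expressed a gene or each held less of its RNA cannot be told apart in bulk RNA. The part of these levels in the results below was not tested.

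None of the 36 members passed the test (0 higher and 0 lower), where 8.75% of all genes tested did (245 higher and 1139 lower). The split of all genes moved with the processing, to 788 higher and 1276 lower with an offset for GC content and gene length and to 1271 higher and 2241 lower without PD-L1 dish 3. DESeq2 called 2 of the 36 and limma-voom 0. The smallest adjusted p-values in edgeR were 0.069 for HSP90B1, 0.0712 for WARS and 0.1 for DNAJB9. An unadjusted p under 0.05 was reached by 8 members (4 higher and 4 lower), or 22.2%, against 23.6% of all genes. The intervals were narrow. For 35 of the 36 members the 95% interval of the difference lay within 1.5-fold in either direction, and CHAC1, the exception, lay within 2-fold. Over all genes, 10569 of 15818 intervals lay within 1.5-fold. A 2-fold difference thus lay outside the interval of each member.

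Of the sensors, 2 had the lowest levels per length of all members, and ATF4 had the highest. Per kb of exon, in the Vector dishes, ATF4 ranked 1st of 36 at 429.6 CPM per kb. ERN1 and EIF2AK3 ranked 36th and 35th at 1.69 and 2.51 CPM per kb, and ATF6 stood at 12.6 CPM per kb. This is a ranking of steady RNA levels over gene models, and lengths of all annotated exons were used.

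XBP1 (ENSG00000100219), whose spliced mRNA encodes the chaperone activator, stood at 192, 192 and 222 CPM in PD-L1 dishes 1 to 3 and at 174, 188 and 177 CPM in Vector dishes 1 to 3. Every PD-L1 dish was above every Vector dish. The difference was 0.17 ± 0.08 (log2 fold change ± SE, adjusted p 0.216), or 0.09 ± 0.07 without PD-L1 dish 3. ATF4 (ENSG00000128272) was at 1087, 1112 and 1259 CPM in the PD-L1 dishes and at 1043, 1128 and 1069 CPM in the Vector dishes. PD-L1 dish 3 was the highest of the 6 and the other 5 overlapped, with a log2 fold change of 0.09 ± 0.08 and an adjusted p of 0.535. ERN1 (ENSG00000178607), the kinase and nuclease IRE1, was at 20.5, 25.1 and 18.2 CPM against 19.3, 17.4 and 18.5 CPM. Its highest and its next highest values were PD-L1 dishes 2 and 1, and PD-L1 dish 3 lay below 2 Vector dishes. The log2 fold change was 0.21 ± 0.12, with an adjusted p of 0.315.

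EIF2AK3 (ENSG00000172071), the kinase PERK, was at 14, 14.9 and 11.1 CPM in the PD-L1 dishes against 14.3, 12.7 and 14 CPM in the Vector dishes. The lowest value was PD-L1 dish 3, and the groups overlapped (log2 fold change -0.04 ± 0.13, adjusted p 0.896). ATF6 (ENSG00000118217), the membrane-bound factor cleaved in the Golgi, ranged from 97.1 to 105 CPM over the 6 dishes, and its log2 fold change was 0.02 ± 0.07. The 5 sensors and factors had a median log2 fold change of 0.09, beside 0.02 over all genes.

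Most ER chaperones had slightly higher values in the PD-L1 dishes, and none passed the test. Of the 14, 11 had a log2 fold change above 0 (78.6%, against 53.6% of all genes), and the median was 0.11, with a range from -0.17 to 0.27. In 5 of them all PD-L1 dishes lay above all Vector dishes (35.7%, beside 12.1% of all genes), and in 2 all lay below (14.3%, beside 15.5%). The 5 were HSP90B1, PDIA4, DNAJB9, SDF2L1 and MANF, and the 2 were PDIA3 and DNAJB11.

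HSPA5 (ENSG00000044574), the HSP70 chaperone BiP that holds the sensors inactive and is the usual readout of ER stress, was at 821, 868 and 906 CPM in PD-L1 dishes 1 to 3. It was at 886, 810.3 and 839 CPM in Vector dishes 1 to 3. The groups overlapped, and the log2 fold change was 0.03 ± 0.08, with a 95% interval from -0.13 to 0.20 and an adjusted p of 0.835. HSP90B1 (ENSG00000166598), the HSP90 family chaperone GRP94, was at 1240.5, 1232 and 1194 CPM against 999, 1051 and 1060.1 CPM. Here the groups were apart in all dishes, by 1.18-fold (log2 fold change 0.24 ± 0.08, interval 0.08 to 0.40, adjusted p 0.069). The gene passed the threshold with DESeq2 (adjusted p 0.00786), after upper-quartile scaling (0.0471) and when PD-L1 dish 3 was left out (0.00505).

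The lectin chaperones of the glycoprotein folding cycle differed in sign. CANX, the membrane-bound calnexin, was the most abundant member per library, at 1481, 1495 and 1312 CPM in the PD-L1 dishes against 1263, 1334 and 1390.2 CPM in the Vector dishes. Its PD-L1 dishes 1 and 2 were above all Vector dishes and its dish 3 was not (log2 fold change 0.11 ± 0.08, adjusted p 0.485). CALR, the soluble calreticulin, was at 937, 983 and 1037 CPM against 1105, 995 and 1027 CPM, with a log2 fold change of -0.08 ± 0.08. PDIA3, the disulfide isomerase that works with both lectins, was at 359, 368 and 353 CPM against 369, 372 and 384 CPM, all PD-L1 dishes below all Vector dishes by 1.04-fold. Of the other isomerases, PDIA4 had means of 395 ± 9.84 and 366 ± 15.4 CPM (SD, n = 3) and PDIA6 of 264 ± 7.26 and 252 ± 6.00 CPM in PD-L1 and Vector dishes. Their log2 fold changes were 0.11 and 0.07, with adjusted p-values of 0.373 and 0.595.

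The J-domain proteins, which hand clients to HSPA5, also differed among themselves. DNAJB9, an ER J protein that brings HSPA5 to IRE1, was at 20.2, 18.3 and 20 CPM in PD-L1 dishes and 15.8, 16.7 and 16.0 CPM in Vector dishes. It had the highest log2 fold change of the 36 members, 0.27 ± 0.10, with an adjusted p of 0.1. DNAJB11, a soluble cochaperone of secreted proteins, had the opposite sign, at 176, 176 and 183 CPM against 211, 195 and 196 CPM (log2 fold change -0.17 ± 0.07, adjusted p 0.164). DNAJC3, the inhibitor of PERK known as P58IPK, was at 66.0, 69.5 and 58.5 CPM against 53.5, 58.2 and 60.1 CPM, with PD-L1 dish 3 within the Vector range. Its log2 fold change was 0.18 ± 0.09, and without that dish it was 0.24 ± 0.08 with an adjusted p of 0.0251.

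The small secreted or lumenal members had their highest value in PD-L1 dish 3. SDF2L1, a partner of the J proteins, was at 98.7, 94.6 and 121 CPM in the PD-L1 dishes against 92.9, 93.7 and 80.3 CPM in the Vector dishes. MANF, a secreted protein induced by ER stress, was at 266, 261 and 320.1 CPM against 261, 258 and 232 CPM. CRELD2, another such secreted protein, was at 69.8, 67.9 and 76.1 CPM against 69.2, 64.1 and 60.5 CPM. In the first 2 the groups did not overlap, but PD-L1 dishes 1 and 2 lay close to the Vector dishes. Their log2 fold changes were 0.23, 0.18 and 0.14 and became 0.12, 0.07 and 0.09 without PD-L1 dish 3. HYOU1, the nucleotide exchange factor of HSPA5, had means of 253 ± 8.94 and 250.3 ± 18.5 CPM, a log2 fold change of 0.01 ± 0.08.

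Among the 13 chaperones with a promoter window, the 8 with an ERSE or ERSE-II had a median log2 fold change of 0.09 (range -0.08 to 0.24) and the 5 without had 0.18 (range -0.17 to 0.27), so the ranges overlapped.

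**Figure D2:**
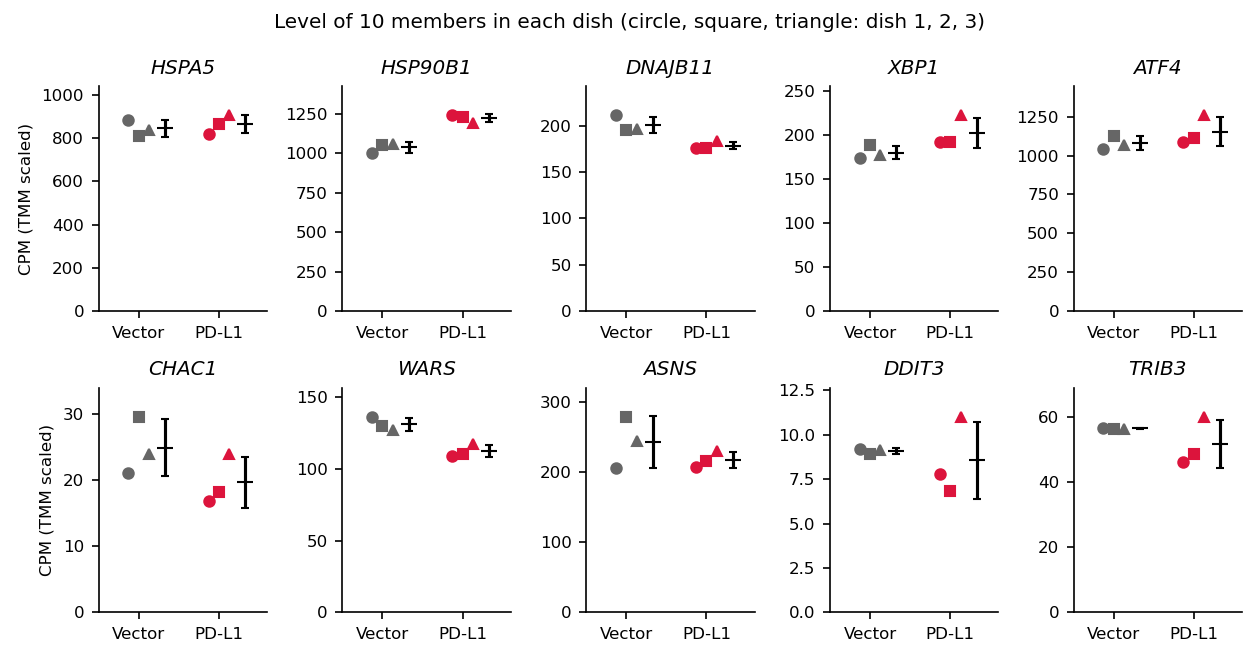
CPM (TMM scaled, axes from 0) of 10 members in Vector and PD-L1 dishes, one symbol per dish, with the mean and SD of the 3 dishes beside them. HSP90B1 is higher in all PD-L1 dishes, DNAJB11 and WARS are lower, and HSPA5 and ATF4 overlap. All of the 10 but HSP90B1 have their highest PD-L1 value in dish 3.

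The 4 genes of ER-associated degradation, which returns misfolded proteins to the cytosol for the proteasome, differed in sign (median log2 fold change -0.02, range -0.20 to 0.20). HERPUD1, a stress-induced scaffold of the degradation complex, was at 49.4, 47.6 and 53.7 CPM in the PD-L1 dishes against 41.5, 43.4 and 46.1 CPM in the Vector dishes. All PD-L1 dishes were above all Vector dishes (log2 fold change 0.20 ± 0.08, adjusted p 0.153). SEL1L, the adaptor of the ubiquitin ligase SYVN1, was at 67.0, 67.1 and 51.7 CPM against 71.5, 67.2 and 74.5 CPM, where dish 3 held most of the gap. Its log2 fold change was -0.20 ± 0.10, and -0.09 ± 0.07 without that dish. SYVN1 itself had means of 45.1 ± 2.12 and 45.1 ± 2.58 CPM, and EDEM1, a lectin that trims and targets glycoproteins, 79.8 ± 2.68 and 82.0 ± 2.10 CPM.

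Most ATF4 targets had slightly lower values in the PD-L1 dishes, and again none passed the test. Of the 13, 12 had a log2 fold change below 0 (92.3%, against 46.4% of all genes), and PSAT1 at 0.04 was the exception. The median was -0.11, with a range from -0.34 to 0.04. It was -0.06 with an offset for GC content and gene length, where TRIB3 and PPP1R15A were each at -0.01, SESN2 at 0.00 and PHGDH at 0.02, and it was -0.20 without PD-L1 dish 3. In 4 targets (SESN2, PSPH, WARS and AARS) all PD-L1 dishes lay below all Vector dishes (30.8%, beside 15.5% of all genes), and in 0 all lay above (beside 12.1%).

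Of the 2 genes on the list for tRNA synthetases, which charge tRNAs with their amino acids, both had all PD-L1 dishes below all Vector dishes. The same held for 1 of the 10 further synthetases described below and for 15.5% of all genes. WARS (ENSG00000140105), the tryptophanyl enzyme, was at 109, 110.4 and 117 CPM in PD-L1 dishes 1 to 3 and at 136, 129.7 and 127 CPM in Vector dishes 1 to 3. The log2 fold change was -0.22 ± 0.07 (1.17-fold lower, interval -0.38 to -0.07, adjusted p 0.0712), and DESeq2 gave an adjusted p of 0.0435. AARS, the alanyl enzyme, was at 307, 312 and 314 CPM against 323, 335 and 351 CPM, with a log2 fold change of -0.11 ± 0.07 and an adjusted p of 0.36.

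Of the stress effectors, 3 shared one pattern over the dishes. DDIT3 (ENSG00000175197), the death-associated factor CHOP, was at 7.81, 6.84 and 11 CPM in the PD-L1 dishes against 9.20, 8.90 and 9.15 CPM in the Vector dishes. TRIB3, a pseudokinase that restrains ATF4, was at 46.1, 48.7 and 60.0 CPM against 56.6, 56.3 and 56.4 CPM. PPP1R15A, the phosphatase subunit GADD34 that dephosphorylates eIF2, was at 48.2, 54.3 and 66.6 CPM against 60.6, 59.9 and 60.6 CPM. In all 3 genes the Vector dishes were nearly level, PD-L1 dishes 1 and 2 lay below them and PD-L1 dish 3 above. CHAC1 (ENSG00000128965), which degrades glutathione, was at 16.8, 18.2 and 24.0 CPM against 21.1, 29.6 and 24.0 CPM. Its log2 fold change, -0.34 ± 0.14, was the lowest of the 36 (1.26-fold lower, adjusted p 0.173). SESN2, a leucine sensor of the mTORC1 pathway, was at 140.2, 155 and 152 CPM against 162, 158 and 163 CPM, with an adjusted p of 0.38.

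The next members supply amino acids, apart from VLDLR and CEBPG. ASNS (ENSG00000070669), asparagine synthetase, was at 207, 216 and 230.2 CPM in the PD-L1 dishes against 206, 279 and 244 CPM in the Vector dishes. Vector dish 1 lay with the PD-L1 dishes (log2 fold change -0.16 ± 0.10, adjusted p 0.356). Of the serine synthesis enzymes, PHGDH, the first step, had means of 524 ± 33.5 and 551 ± 25.2 CPM and PSAT1, the next, 329 ± 12.4 and 321 ± 36.2 CPM. PSPH, the last step, had means of 46.7 ± 0.359 and 49.7 ± 2.04 CPM in the same order, a log2 fold change of -0.09. VLDLR, a lipoprotein receptor, was at 17.7, 21.8 and 19.8 CPM against 26.0, 20.7 and 23.9 CPM (-0.26 ± 0.11, adjusted p 0.183). CEBPG, a partner of ATF4 in binding DNA, overlapped between groups at -0.03 ± 0.08.

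The 4 targets with a C/EBP-ATF element had a median log2 fold change of -0.14 and the 8 that had a window without it -0.10.

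**Figure D3:**
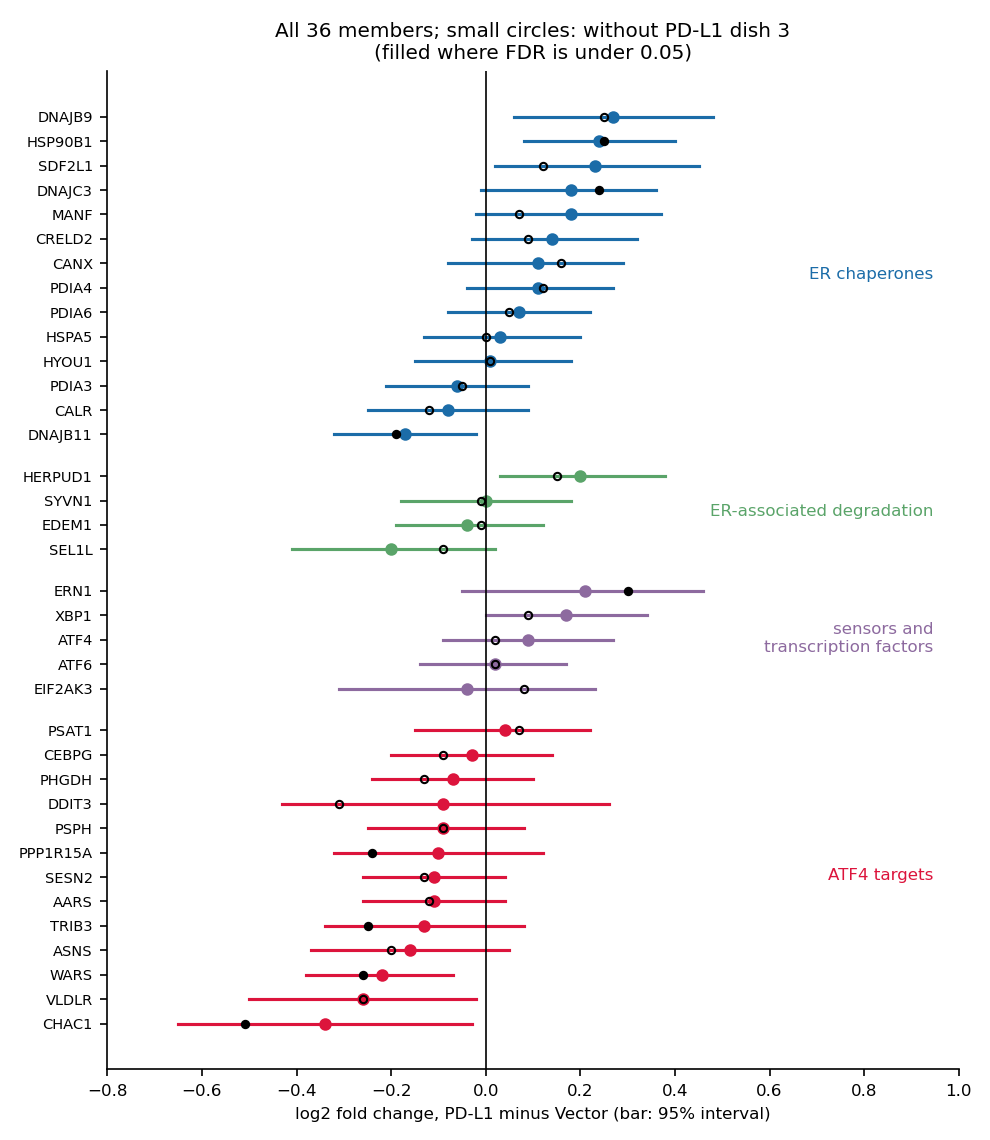
Log2 fold change (PD-L1 minus Vector, x axis) of each of the 36 members with its 95% interval, coloured by role, and the value without PD-L1 dish 3 as a small circle, filled where its FDR is under 0.05. Of the chaperones, 11 of 14 lie right of 0, and of the ATF4 targets 12 of 13 lie left of it.

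Chaperones were set against ATF4 targets within each dish. For this, each gene's log2 CPM was taken as a difference from its Vector mean, and the median over the list was formed per dish, which centres the Vector dishes near 0 by construction. The chaperone medians were 0.095, 0.069 and 0.094 in PD-L1 dishes 1 to 3 and 0.048, -0.01 and 0.00 in Vector dishes 1 to 3. The ATF4 target medians were -0.216, -0.108 and -0.04 in PD-L1 dishes and 0.005, -0.006 and 0.015 in Vector dishes. All PD-L1 dishes thus lay above the Vector dishes for chaperones and below them for ATF4 targets, while the median of all genes was between 0.001 and 0.012 in every dish. Over the 3 PD-L1 dishes the SD was 0.015 for the chaperone medians and 0.089 for the ATF4 target medians.

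The gap between the lists was 0.311, 0.177 and 0.133 log2 units in PD-L1 dishes 1 to 3, a mean of 0.207 ± 0.093 (SD, n = 3), and 0.043, -0.004 and -0.014 in Vector dishes 1 to 3. It was 0.155 to 0.258 when 1 dish was left out, and 0.244 without PD-L1 dish 3. After an offset for GC content and gene length, the gap in the PD-L1 dishes was 0.238, 0.19 and 0.194, with the same mean of 0.207 and an SD of 0.027, and in the Vector dishes it was 0.078, -0.053 and -0.017, a wider spread than without the offset. The gap is a description with no p-value, since the lists were drawn up with results of these dishes known.

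**Figure D4:**
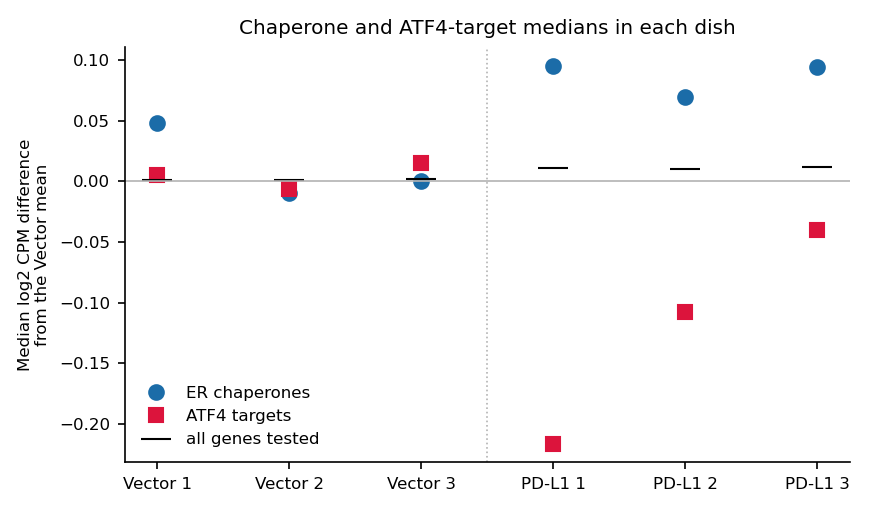
Median over the list of log2 CPM minus the Vector mean (y axis) in each of the 6 dishes, for the 14 chaperones, the 13 ATF4 targets and all genes tested. Each gene is centred on its Vector mean, so the lists lie near 0 in the Vector dishes by construction; in the PD-L1 dishes the gap is largest in dish 1 (0.311) and smallest in dish 3 (0.133).

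PD-L1 dish 3 differed from the other PD-L1 dishes for many members. It was the highest PD-L1 dish for 9 of the 13 ATF4 targets (69.2%, against 41.8% of all genes), and PD-L1 dish 1 was the lowest for 10 (76.9%, against 32.5%). Relative to the mean of PD-L1 dishes 1 and 2, log2 CPM in dish 3 was 0.58 higher for DDIT3, 0.45 for CHAC1, 0.38 for PPP1R15A and 0.34 for TRIB3. The same difference was 0.32 for SDF2L1 and 0.28 for MANF, and it was -0.38 for EIF2AK3, -0.37 for SEL1L and -0.32 for ERN1. The genes named as high had 1.1 to 3.43 kb of exon and those named as low 5.43 to 10.9 kb. Their GC content differed too, at 49.7% to 65.5% and 39.4% to 50.8%. The 12 shortest members (1.1 to 3.28 kb of exon) had a median of 0.20, the 12 in the middle 0.08 and the 12 longest (5.5 to 10.9 kb) 0.00. Over all genes, split by length in the same way, the medians were 0.13, 0.02 and -0.10. After the offset for GC content and length, the ATF4 target medians were -0.137, -0.074 and -0.087 in PD-L1 dishes 1 to 3. In Vector dishes 1 to 3 they were -0.061, 0.027 and 0.019. Dish 3 then no longer had the value nearest to 0 among the PD-L1 dishes. The offset takes GC content and length together, and their separate parts were not tested.

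**Figure D5:**
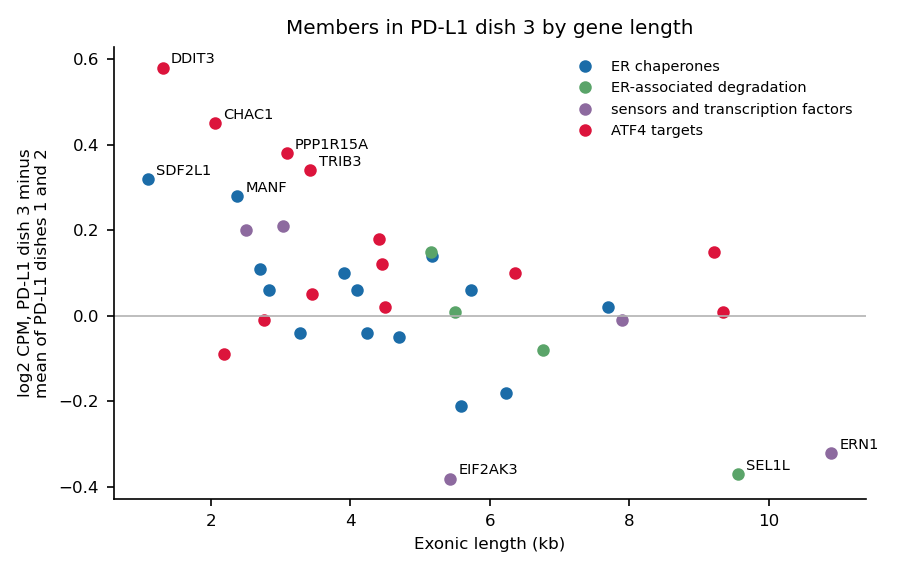
Log2 CPM in PD-L1 dish 3 minus the mean of PD-L1 dishes 1 and 2 (y axis) against the exonic length in kb (x axis) of the 36 members, coloured by role. DDIT3, CHAC1, PPP1R15A and TRIB3 are highest (0.34 to 0.58), and EIF2AK3, SEL1L and ERN1 lowest (-0.38 to -0.32).

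Without PD-L1 dish 3, 8 of the 36 members passed (22.2%), next to 21.6% of all genes. HSP90B1, DNAJC3 and ERN1 were higher, with log2 fold changes of 0.25, 0.24 and 0.30. DNAJB11, TRIB3, CHAC1, PPP1R15A and WARS were lower, at -0.19, -0.25, -0.51, -0.24 and -0.26. HSPA5 was at 0.00 ± 0.06 in that comparison and DDIT3 at -0.31 ± 0.14, with an adjusted p of 0.122. The median over the chaperones was 0.08. Leaving out any other dish gave 0 members.

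Other settings called other members, given here beside the share of all genes called. The offset for GC content and length called 5, SDF2L1 (0.32), CRELD2 (0.21) and HERPUD1 (0.23) as higher and DNAJB11 (-0.25) and SEL1L (-0.23) as lower, beside 13% of all genes. With that offset and without PD-L1 dish 3, 7 passed, beside 21.2%, of which HSP90B1, PDIA4, SDF2L1, CRELD2 and ERN1 were higher and DNAJB11 and WARS lower. The offset with the replicate number as a block called SDF2L1, beside 8.06%. Upper-quartile scaling called HSP90B1 (8.81% of all genes), DESeq2 called HSP90B1 and WARS (9.9%), and the fit without a low-count filter called CHAC1 (5.71%).

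The other genes of the pathway were 77 in 6 lists, and 2 of them passed (1 higher and 1 lower), where 8.75% of all genes did. ERO1B (ENSG00000086619), an oxidase that recharges disulfide isomerases, was at 45.0, 42.6 and 39.5 CPM in PD-L1 dishes and 26.6, 27.1 and 31.7 CPM in Vector dishes. It rose 1.49-fold (log2 fold change 0.57 ± 0.09, adjusted p 0.00202 in edgeR) and passed in all 16 alternatives. CREB3L1 (ENSG00000157613), a membrane-bound transcription factor of the ATF6 type that acts on collagen genes, was at 2.83, 2.90 and 4.28 CPM against 5.06, 4.74 and 6.08 CPM. It fell by 0.66 on the log2 scale (SE 0.19, adjusted p 0.0455). That call was lost with DESeq2 (adjusted p 0.0628), with upper-quartile scaling (0.052), with the GC and length offset (0.0522), with that offset and the replicate block (0.0617) and with any dish but PD-L1 dish 3 left out (0.0641 to 0.198). A filter on a mean of 5 CPM left the gene untested.

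Of the other genes in these lists none passed, and each list's median is given beside 0.02 for all genes. The 20 further ER folding and translocation genes had a median log2 fold change of -0.04. Of these, 8 were above 0 (40%, against 78.6% of the 14 chaperones) and 12 below. Among them were the translocon channel SEC61A1 at -0.18 (adjusted p 0.119) and the isomerase P4HB at -0.21 (0.153). The 13 further ER-associated degradation genes had a median of 0.06, with DERL3, a derlin of secretory cells, at 0.37 (0.136). The 8 further ER-bound transcription factors and regulators had a median of -0.07, with CREB3 at -0.26 (0.106). The 10 eIF2 kinases and regulators had -0.06, with EIF2S1, the eIF2 alpha subunit, at -0.18 (0.202).

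The 16 further ATF4 target genes had a median of -0.06, of which 10 were below 0 (62.5%, against 92.3% of the 13 members). ATF3, a stress transcription factor, stood at 0.19 (adjusted p 0.311) and DDIT4, an mTORC1 inhibitor, at -0.36 (0.329). PD-L1 dish 3 was the highest PD-L1 dish for 14 of these 16 genes and PD-L1 dish 1 the lowest for 12. The 10 further aminoacyl-tRNA synthetases had a median of 0.02, with GARS, the glycyl enzyme, at -0.25 (0.0694). Without PD-L1 dish 3, 17 of the 77 passed (6 higher and 11 lower, 22.1%), beside 21.6% of all genes.

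Strand is not kept by the library kit. Reads of a member and of a gene on the opposite strand could not be told apart, and 15 members overlap exons of such a gene. The partner was at least as abundant as the member for DDIT3 (MARS, 306 CPM in Vector dishes, and MBD6, 42.0 CPM, against 9.08 CPM), DNAJB9 (PNPLA8, 25.3 CPM, and THAP5, 20.3 CPM, against 16.2 CPM) and SYVN1 (MRPL49, 113 CPM, and on the same strand FAU, 171 CPM, against 45.1 CPM). In the PD-L1 dishes the means were 26.0 CPM for PNPLA8, 24.2 CPM for THAP5 and 19.5 CPM for DNAJB9 itself. CRELD2 shares exon sequence with ALG12 (23.1 CPM) and WARS with WDR25 (15.0 CPM in the Vector dishes, 9.6 CPM in the PD-L1 dishes). The values of these 5 members are uncertain to that extent. Named pseudogenes exist for 8 members, and the most abundant, of ASNS, was counted at 6.19 CPM.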

How the data were processed

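Poly-A RNA of 3 PD-L1 and 3 Vector dishes was sequenced, and groups were read from the sample titles. Raw read counts for each Ensembl gene ID were deposited by the authors as whole numbers, 1 column per dish. CASAVA 1.8, STAR 2.5.1b, HTSeq 0.6.0 and hg19 are named in the submitters' processing notes. The sources used here do not give the annotation or the strand setting. Symbols came from a name table for 51996 IDs and from GENCODE 29 for 342, while 5435 IDs had none. WARS and AARS were matched as WARS1 and AARS1. Beyond those symbols, GENCODE 29 was used only for overlaps and for lengths and GC content, known for 52337 IDs.

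Raw counts of all 6 dishes were tested in R 4.3.3 with edgeR 4.0.16 (filterByExpr, TMM, robust quasi-likelihood, no covariate) with Benjamini-Hochberg adjustment over all 15818 genes tested. The common biological coefficient of variation was 8.6%. Log2 CPM used a prior count of 2. Standard errors and 95% intervals follow from each gene's F statistic and fold change. Alternatives were other scalings, DESeq2 1.42.0, limma-voom (limma 3.58.1), other filters, a replicate block, each dish left out and a GC and length offset (natural splines, 5 degrees of freedom). In counts simulated for this comparison (15627 genes), edgeR recovered 60% of 1.5-fold and 81% of 2-fold changes, and 8.44% of its calls were false. The simulated counts varied independently, with no effect shared by the genes of a dish, and the changed genes were drawn from all levels of expression. These rates therefore need not hold for the members. The members and lists were chosen with earlier results of these data known. All members could be named, and of each further list up to 4 genes with the smallest FDR. Tables and plots used Python 3.11.15, pandas 2.3.3 and matplotlib 3.10.9.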

Additional observations from a re-analysis of the deposited data

How the results depend on the processing

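The lowest member count was 111, and the 3 dishes of 1 line per group limit the precision. Of 576 member results under 16 alternatives, 520 kept their direction and side of the threshold, 25 passed it with the same direction and 31 changed sign. The sign changes came from 11 members whose reported log2 fold changes lay between -0.11 and 0.04. The number of all genes changed was 1384 and lay between 545 and 3512 with 1 dish left out (dropping PD-L1 dishes 1, 2 and 3 in turn gave 641, 745 and 3512, and dropping Vector dish 1 gave 545), and it was 3442 with the GC and length offset and without PD-L1 dish 3. The number of members changed, 0, became 1 with upper-quartile scaling, 2 with DESeq2, 1 without a low-count filter, 5 with the offset, 1 with the offset and the replicate block, 7 with the offset and without PD-L1 dish 3, and 0 to 8 with 1 dish left out. For ER chaperones these were 1 (upper-quartile), 1 (DESeq2), 3, 1 and 5 (offset alone, with block, without PD-L1 dish 3) and 0 to 3. For ATF4 targets they were 1 (DESeq2), 1 (no filter), 1 (offset without PD-L1 dish 3) and 0 to 4. For the 77 other pathway genes, 2 became 1 (upper-quartile), 5 (no filter), 1 (mean of at least 5 CPM), 8, 1 and 19 (offset alone, with block, without PD-L1 dish 3) and 1 to 17 with 1 dish left out. The cause was not tested.

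Log2 fold changes that turned sign, none of them past the threshold, were as follows. Without a low-count filter they were -0.00348 for HYOU1, -0.0176 for SYVN1 and -0.000678 for ATF6. SYVN1 was at -0.000577 with relative log expression scaling and -0.00626 with DESeq2, and CEBPG at 0.00595 with upper-quartile scaling. With the offset they were 0.00365 for SESN2, -0.0383 for PSAT1 and 0.0151 for PHGDH, and with the offset and the block 0.00287, -0.0365 and 0.0153. With the offset and without PD-L1 dish 3 they were -0.00293 for HSPA5, -0.0353 for ATF6, 0.0515 for EIF2AK3, 0.0474 for SESN2 and -0.00925 for PSAT1. With 1 dish left out the values ran from -0.00203 to 0.0706 for HSPA5, -0.0467 to 0.0421 for HYOU1, -0.0429 to 0.0361 for SYVN1, -0.00875 to 0.0425 for ATF6, -0.12 to 0.0776 for EIF2AK3, -0.31 to 0.0472 for DDIT3, -0.24 to 0.00415 for PPP1R15A, -0.0452 to 0.12 for PSAT1 and -0.0926 to 0.00878 for CEBPG.

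The labels do not say whether same-numbered dishes were handled together. Deviations of same-numbered dishes correlated at -0.212, -0.0512 and -0.192 over genes. Dishes with different numbers were not compared in this way, so these values do not decide whether the dishes were paired. The replicate block gave 1447 genes changed and 0 members, with 2 other pathway genes. The low-count filters and the block do not enter the gap between chaperones and ATF4 targets, and a scaling, which shifts all genes of a dish alike, cannot change it. The gap was 0.207 as reported and with the offset, and 0.219 with the offset and without PD-L1 dish 3.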

Other observations

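The 10 further aminoacyl-tRNA synthetases ordered the Vector dishes alike, with all 10 highest in Vector dish 2 and all 10 lowest in Vector dish 1. Over all genes tested, Vector dish 2 was the highest Vector dish for 34.7% and Vector dish 1 the lowest for 35.9%. GARS was at 177, 207 and 198 CPM in Vector dishes 1 to 3 and SARS, the seryl enzyme, at 324, 367 and 334 CPM. The synthetases among the ATF4 targets differed from them in the highest Vector dish, which was dish 1 for WARS and dish 3 for AARS. The lowest Vector value of AARS was in dish 1, as in the further synthetases. Among the ATF4 targets, ASNS, CHAC1, PSAT1, PHGDH and CEBPG, 5 of 13, were highest in Vector dish 2. That is 38.5%, close to the 34.7% of all genes. These genes were chosen after their values were seen, and the pattern was not tested.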
